A study of Mus musculus with 25 samples.

Results

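Incretin, glucagon and related receptors of class B were followed in αTC1 and βTC6, clonal mouse lines that serve as models of the glucagon-secreting alpha cell and the insulin-secreting beta cell of the pancreatic islet. The 10 receptor genes were taken by symbol from a table of 24439 genes: Glp1r, Gipr, Gcgr, Sctr, Vipr1, Vipr2, Adcyap1r1, Crhr1, Crhr2 and Calcrl. Open chromatin was taken as the ATAC-seq peaks whose nearest gene, as annotated in the deposited table, was a member, which gave 42 of 65053 peaks. The rule itself used no measured value, but the members were chosen with earlier results of these data known. The lines are alpha TC1 clone 6 and beta-TC-6, each grown untreated in its own serum-supplemented medium, so line and culture medium cannot be told apart.

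RNA-seq covered 3 libraries of each line and ATAC-seq covered 5 libraries of each line. A further 9 ATAC-seq libraries came from mixtures in which αTC1 cells made up 10% to 90% of the cells in steps of 10%, with 1 library per composition. No source used here says whether replicates were separate cultures, so the p-values measure only the spread between these libraries, which may be technical.

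Class B receptors bind peptide hormones and mostly couple through the stimulatory G protein Gs to adenylyl cyclase, which makes the second messenger cyclic AMP. In beta cells the receptors for GLP-1 (Glp1r) and for GIP (Gipr) carry the incretin effect, by which gut hormones raise glucose-dependent insulin secretion, and the cyclic AMP signal is read by protein kinase A and by the exchange factors encoded by Rapgef3 and Rapgef4. Glucagon, secretin, VIP, PACAP, the corticotropin-releasing factor family and the calcitonin family act on close relatives of these receptors.

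The RNA-seq libraries held 21954031 to 25004959 expected counts in αTC1 and 24554808 to 26033482 in βTC6. The ATAC-seq libraries held 6903416 to 8300868 reads in peaks in αTC1, 4397851 to 10374903 in βTC6 and 5277983 to 7294832 in the mixtures. Most, not all, of the islet markers followed the line names. Gcg had at least 12113 FPKM (fragments per kilobase of transcript, scaled to library depth) in each αTC1 library and at most 267 in any βTC6 library. Ins2, Pdx1 and Mafa had at least 23541, 104 and 41.1 FPKM in βTC6 and at most 0.64, 0 and 0.57 in αTC1. Ttr, from the alpha cell list, overlapped between βTC6 (544 to 1580 FPKM) and αTC1 (657 to 929), and Nkx6-1, from the beta cell list, had 13.3 to 14.1 FPKM in αTC1 against 56.6 to 66.7 in βTC6. Sst, the somatostatin gene of delta cells, was also present in βTC6 at 207 to 325 FPKM and was 0 in αTC1, and Ppy reached 3.70 to 50.8 FPKM in βTC6. The other delta cell gene, Hhex, stayed at or below 0.13 FPKM in all 6 libraries. The summed endothelial, immune, fibroblast and acinar markers reached at most 0.28, 2.19, 0.21 and 3.73 FPKM in any library, and the duct markers, through Spp1, 4.10 to 9.93 in αTC1 and 6.92 to 13.2 in βTC6. Among RNA-seq replicates, αTC1 replicates 1 and 2 were the closest pair, with a chi-square per degree of freedom of 2.06 over genes, which is above sampling noise. αTC1 replicate 3 was at 27.8 and 29.3 from them, within the 17.3 to 38.4 of the βTC6 pairs, so the close αTC1 pair was the exception. Whether that pair came from separate cultures is not known, so the αTC1 spread may be too small. Where leaving out αTC1 replicate 3 moved a value by over 1.5 times, the value without it is given too.

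Receptor mRNA was concentrated in βTC6. On the FPKM scale, which allows genes to be compared per length, the βTC6 order was Glp1r (63.0 ± 13.2, SD, n = 3), Crhr1 (17.3 ± 1.16), Gipr (10.8 ± 3.84), Vipr2 (4.51 ± 1.90), Vipr1 (2.95 ± 0.844) and Crhr2 (0.673 ± 0.319). The ranges of Vipr2 and Vipr1 overlapped, and the other neighbours among these genes did not. Adcyap1r1, Gcgr, Sctr and Calcrl stayed at or below 0.07 FPKM in every βTC6 library. In αTC1 no member reached 0.8 FPKM in any library, and each gene overlapped the next in the order, from Vipr1 (0.517 ± 0.182) down to Glp1r (0 in all 3). In bulk libraries such as these, fewer expressing cells and less RNA per cell cannot be told apart.

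**Figure D1:**
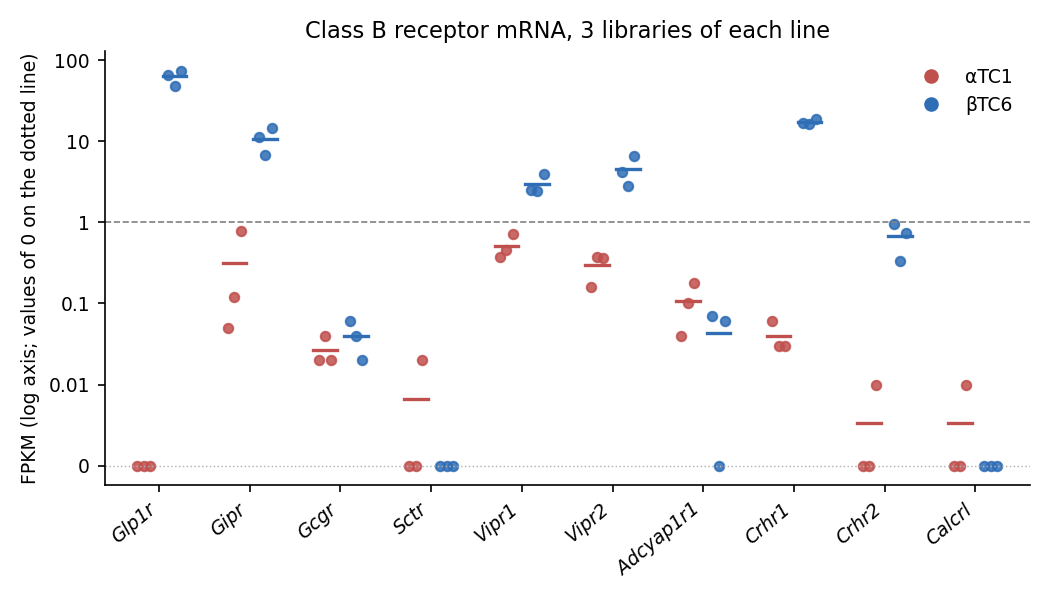
FPKM of the 10 receptor genes on a log axis, with 1 point per RNA-seq library (3 αTC1 in red, 3 βTC6 in blue), bars at the mean, values of 0 on the dotted line, and the filter of 1 FPKM dashed. Glp1r, Gipr, Vipr1, Vipr2 and Crhr1 lie above the filter in all βTC6 libraries and below it in all αTC1 libraries, and Gcgr, Sctr, Adcyap1r1 and Calcrl lie near 0 in both lines.

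Differences were tested with edgeR's quasi-likelihood test on rounded expected counts, among 12195 genes with at least 1 FPKM in all replicates of either line. Calling a gene took an FDR (Benjamini-Hochberg) below 5% together with a log2 fold change beyond 2 in either direction, and fold changes are βTC6 over αTC1. Glp1r, Gipr, Vipr1, Vipr2 and Crhr1 passed the filter and were called higher in βTC6, beside 10.2% of all genes tested. Each passed the filter only through the βTC6 libraries, so it had to differ, and nothing is read from that count. No member was called higher in αTC1, beside 4.08% of all genes. With no filter, 19570 genes were tested and the median log2 fold change of the 10 members was 3.48, against 0.09 over all genes, and it was the same with Glp1r set at its lower bound. In that fit 6 members were called higher in βTC6 (12.8% of all genes) and 1 higher in αTC1 (5.21%).

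Glp1r, the receptor for GLP-1 (ENSMUSG00000024027, chr17:31038785-31073455, plus strand, mm9), had the highest βTC6 level of the 10 genes. Its expected counts were 2508, 1851 and 2685 in βTC6 replicates 1 to 3 and 0 in each αTC1 library. The groups did not overlap, and αTC1 replicate 3 was also at 0. With 3 counts per library as the floor in αTC1, Glp1r was at least 731-fold higher in βTC6 (edgeR adjusted p = 2.12e-07). The 250 bases upstream of its start site, from RefSeq on GRCm38.p6, are shown because the promoter peak described further on lies over this start site. The sequence is 73.2% G and C.

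Glp1r promoter, chr17:30901617-30901866, + strand: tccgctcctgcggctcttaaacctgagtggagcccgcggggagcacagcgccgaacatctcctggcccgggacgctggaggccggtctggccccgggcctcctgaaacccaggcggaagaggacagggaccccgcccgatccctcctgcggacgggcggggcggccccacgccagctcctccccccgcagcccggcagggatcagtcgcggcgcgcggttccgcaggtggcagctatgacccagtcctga

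Gipr, the receptor for the other incretin GIP (ENSMUSG00000030406, chr7:19742474-19751476, minus strand), had 512, 314 and 633 counts in βTC6 and 2, 5 and 35 in αTC1. Every βTC6 library lay above every αTC1 library, and 35 of the 42 αTC1 counts came from replicate 3. Its log2 fold change was 5.09 (SE 0.61, edgeR adjusted p = 5.74e-05). Without αTC1 replicate 3 it was 7.002, so this library decided the size of the difference and not the call.

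Gcgr, the glucagon receptor (ENSMUSG00000025127, chr11:120392013-120400402, plus strand), was close to absent from both lines. It had 1, 2 and 1 counts in αTC1 and 3, 2 and 1 in βTC6, at most 0.06 FPKM. The ratio of βTC6 to αTC1 was 1.40 with an exact 95% interval of 0.332 to 6.75 that covers counting error only, so no difference was detectable at this depth (edgeR with no filter, adjusted p = 0.692). Sctr, the secretin receptor (ENSMUSG00000026387, chr1:121903557-121960105, plus strand), had 1 count in αTC1 replicate 3 and 0 in the other 5 libraries.

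The mRNA of both receptors shared by VIP and PACAP was higher in βTC6. Vipr1, which encodes VPAC1 (ENSMUSG00000032528, chr9:121551834-121582072, plus strand), had 40, 55 and 84 counts in αTC1 and 321, 305 and 460 in βTC6. It was the member with the most αTC1 counts, and the groups did not overlap. Its log2 fold change of 2.57 (SE 0.27, edgeR adjusted p = 2.44e-05) was the smallest among the called members, and on log2(FPKM + 1) in limma it was 1.37, under the fold threshold. Vipr2, which encodes VPAC2 (ENSMUSG00000011171, chr12:117316196-117384734, plus strand), had 12, 20 and 17 counts in αTC1 and 360, 252 and 517 in βTC6. Its groups did not overlap either, with a log2 fold change of 4.49 (SE 0.34, edgeR adjusted p = 2.89e-06).

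Adcyap1r1 encodes PAC1, the receptor selective for PACAP (ENSMUSG00000029778, chr6:55401972-55451445, plus strand), and ran the other way at very low counts. It had 5, 11 and 27 counts in αTC1 and 4, 0 and 5 in βTC6. The groups overlapped in FPKM, where αTC1 replicate 1 had 0.04 and the highest βTC6 library had 0.07. With no filter its log2 fold change was -2.28 (SE 0.79, edgeR adjusted p = 0.0261). Without αTC1 replicate 3, an alternative chosen after seeing the counts, it was -1.497 (adjusted p = 0.171), so the call rested on that library.

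Crhr1, the receptor that binds corticotropin-releasing factor (CRF) itself with high affinity (ENSMUSG00000018634, chr11:103994169-104036837, plus strand), was the second most abundant member in βTC6. It had 1017, 985 and 1107 counts in βTC6 and 3, 2 and 2 in αTC1. The βTC6 libraries were close together, and the groups did not overlap. The ratio was 415 with an exact 95% interval of 201 to 1032 for counting error (edgeR adjusted p = 3.89e-09). Its promoter is shown for the same reason as that of Glp1r, and it is 74.8% G and C.

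Crhr1 promoter, chr11:104132531-104132780, + strand: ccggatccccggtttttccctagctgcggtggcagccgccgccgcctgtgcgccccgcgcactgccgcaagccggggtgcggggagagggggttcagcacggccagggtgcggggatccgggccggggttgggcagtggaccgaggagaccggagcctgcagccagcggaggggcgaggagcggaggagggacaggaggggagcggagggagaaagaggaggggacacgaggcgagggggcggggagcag

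Crhr2, the receptor preferred by the urocortins (ENSMUSG00000003476, chr6:55040043-55083010, minus strand), had 56, 20 and 41 counts in βTC6 and 0, 0 and 1 in αTC1. Its βTC6 level of 0.33 to 0.96 FPKM was under the filter in every library. The ratio was 109, with an exact 95% interval of 19.2 to 4351 set by a single αTC1 count, in replicate 3 (edgeR with no filter, log2 fold change 6.33, adjusted p = 1.52e-05). Without that library, an alternative chosen after seeing the data, the log2 fold change was 8.24, fitted against 0 counts and so no bound. Calcrl, which needs a RAMP partner to bind CGRP or adrenomedullin (ENSMUSG00000059588, chr2:84170783-84265568, minus strand), had 1 count in αTC1 replicate 3 and 0 elsewhere, and no peak had it as its nearest gene.

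Genes whose levels followed the called members most closely over the 6 libraries are given as a description. By Pearson r of log2(FPKM + 1), the nearest to Glp1r were Rims3, Fbxo27 and Adcy1, and the nearest to Crhr1 were Papss2, Nefh and Lrrfip1, with r between 0.99992 and 0.99999. The nearest to Gipr were Rere, Pbld2 and Bmp2k. Speg, Wsb2 and C030019I05Rik were nearest to Vipr1, and Bambi, Hlcs and Mgrn1 were nearest to Vipr2. The lines dominate these correlations, since 1694 to 2798 of 12194 genes had an r over 0.95 with a given member.

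The ligand genes split between the lines. Several were expressed beside a receptor with little or no mRNA, and others beside a receptor with mRNA in the same line. Of 15 ligand genes, 6 passed the filter, of which 3 were called higher in βTC6 and 2 higher in αTC1, beside 10.2% and 4.08% of all genes tested. Sct, Iapp, Adcyap1 and Calca passed only through the line where they are high, so nothing is read from these counts. With no filter, the 12 ligand genes with a count had a fitted median log2 fold change of 1.21. It was 0.61 with Gip and Ucn3, which are at 0 in αTC1, set at their bounds. With Crh, which had 1 count in βTC6 and 0 in αTC1, also set at the floor it was 0.09, the same as the 0.09 over all genes. In the fit with no filter, 5 ligand genes were called higher in βTC6 and 2 higher in αTC1, beside 12.8% and 5.21% of all genes. The added calls were Gip and Ucn3, at no more than 0.42 and 1 FPKM in βTC6. Gcg, whose product is cut into glucagon or GLP-1, had 12113 to 14406 FPKM in αTC1 against 172 to 267 in βTC6 (log2 fold change -5.76, SE 0.23), beside a Gcgr of at most 0.06 FPKM. In βTC6 Gcg also stood beside Glp1r at 48.5 to 74.3 FPKM. Sct, the secretin gene, had 0.09 to 0.20 FPKM in αTC1 and 1777 to 3135 in βTC6, a ratio of 16083 with a 95% counting interval of 6892 to 49535, beside Sctr at 0 in every βTC6 library.

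The remaining called ligands were Iapp, Adcyap1 and Calca. Iapp, which encodes amylin, had 8725 to 13162 FPKM in βTC6 and at most 0.91 in αTC1, while its receptor gene Calcr was at most 0.06 in βTC6. Adm2, whose product acts through Calcrl, passed the filter but was not called, at 7.05 to 11.1 FPKM in αTC1 and 9.42 to 17.1 in βTC6, beside Calcrl at no more than 0.01 in any library. Adcyap1, which encodes PACAP, had 2.77 to 6.78 FPKM in βTC6 and 0.11 to 0.18 in αTC1 (log2 fold change 4.99, SE 0.44). Its mRNA was thus higher in the same line as that of Vipr1 and Vipr2, while Adcyap1r1 was at most 0.07 FPKM there. Peptide and receptor protein were not measured. Calca, the gene of calcitonin and CGRP, had 3.42 to 3.95 FPKM in αTC1 and 0.33 to 0.91 in βTC6 (log2 fold change -2.52, SE 0.32). In αTC1 it stood beside Calcr at 7.56 to 13.1 FPKM.

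Among 5 other class B receptors, Calcr alone passed the filter and was called higher in αTC1, where 4.08% of all genes tested were called. It passed only through the αTC1 libraries, so it had to differ, and nothing is read from that count. Calcr, the calcitonin receptor, had 7.56 to 13.1 FPKM in αTC1 and at most 0.06 in βTC6 (log2 fold change -8.95, SE 0.47, and -10.49 without βTC6 replicate 3, which held 4 of the 5 βTC6 counts), the opposite direction to the called members. The other 4 (Glp2r, Ghrhr, Pth1r and Pth2r) stayed below 1 FPKM in all libraries. Of 4 receptor partners 3 passed the filter, of which 1 was called higher in βTC6 and 0 higher in αTC1, beside 10.2% and 4.08% of all genes tested. That gene, Ramp1, passed only through the βTC6 libraries, so nothing is read from that count. The median log2 fold change of all 4 was 1.11 with no filter. Ramp1, a partner of Calcrl and Calcr, was called higher in βTC6 at 2.07 to 3.26 FPKM against 0.02 in each αTC1 library, a ratio of 159 with a counting interval of 54.1 to 774 from 3 αTC1 counts. Crcp was the most abundant partner, at 17.7 to 22.8 FPKM in αTC1 and 25.9 to 30.0 in βTC6, and was not called.

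The next list holds the peptidases that shape these ligands. All 4 genes passed the filter, of which 2 were called higher in βTC6 and 1 higher in αTC1, beside 10.2% and 4.08% of all genes tested. Dpp4, Pcsk1 and Mme each passed only through the line where they are high, so nothing is read from these counts. With no filter their median log2 fold change was 4.18, and that of all genes with a count was 0.09. Dpp4, the enzyme that inactivates GLP-1 and GIP, had 7.22 to 13.7 FPKM in βTC6 and 1 count in all αTC1 libraries together, a ratio of 3651 with a counting interval of 655 to 144230. That count was in replicate 3, and the fitted log2 fold change of Dpp4 went from 11.43 to 13.31 without it. Pcsk1, the convertase that releases GLP-1 from proglucagon, had 44.5 to 121 FPKM in βTC6 and 0.06 to 0.25 in αTC1 (log2 fold change 9.13, SE 0.53). Mme, the endopeptidase neprilysin, had 6.93 to 11.01 FPKM in αTC1 and at most 0.08 in βTC6 (log2 fold change -7.03, SE 0.28). Pcsk2, the convertase that releases glucagon, was the most abundant of the 4 at 753 to 830 FPKM in αTC1 and 382 to 522 in βTC6, and was not called.

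**Figure D2:**
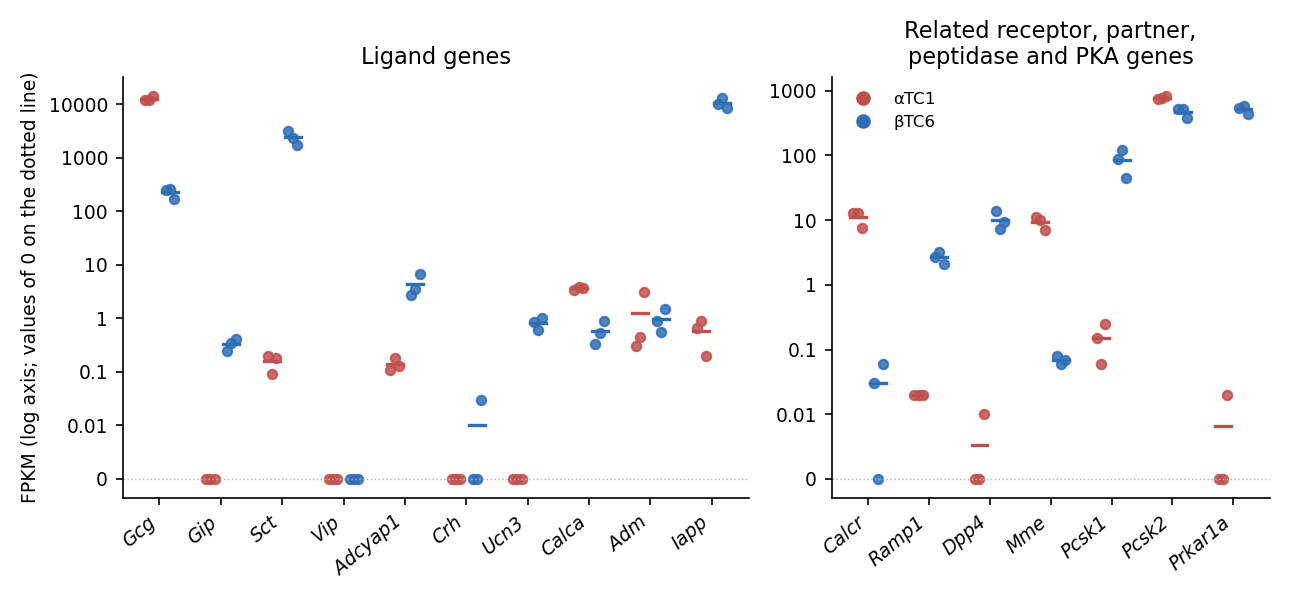
FPKM on a log axis of ligand genes of the receptors (left) and of the related receptor Calcr, the partner Ramp1, peptidase genes and the protein kinase A subunit gene Prkar1a (right), with 1 point per RNA-seq library (3 αTC1 in red, 3 βTC6 in blue), bars at the mean and values of 0 on the dotted line. Sct and Iapp reach at least 1777 FPKM in βTC6 and at most 0.91 in αTC1, Gcg is highest in αTC1, and Dpp4 and Pcsk1 are on the βTC6 side while Calcr and Mme are on the αTC1 side.

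Downstream of Gs, 12 of 16 transduction genes passed the filter, and 4 were called higher in βTC6 and 0 higher in αTC1, beside 10.2% and 4.08% of all genes. With no filter the median log2 fold change of the 16 was -0.15, and Adcy8 (0.32 to 0.51 FPKM in βTC6, 0 in αTC1) and Rapgef3 (log2 fold change -2.12, higher in αTC1) were also called. At the FDR alone, with no fold threshold, 5 of the 12 genes past the filter were higher in each direction, beside 38.7% of all genes higher in βTC6 and 36% higher in αTC1. Gnas, which encodes the Gs alpha subunit, was the most abundant at 2609 to 2809 FPKM in αTC1 against 2550 to 2885 in βTC6 (log2 fold change -0.03, SE 0.12, edgeR adjusted p = 0.815).

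The 4 called genes were Prkar1a, Adcy3, Adcy9 and Prkar2b. Of these, Prkar1a and Adcy3 passed the filter only through the βTC6 libraries, so they had to differ. Prkar1a, the regulatory subunit RI-alpha of protein kinase A, had 435 to 584 FPKM in βTC6 and 1 count in all αTC1 libraries together, in replicate 3 (fitted log2 fold change 16.19, and 18.07 without that library). The adenylyl cyclase genes Adcy3 and Adcy9 had log2 fold changes of 2.65 (SE 0.18) and 2.61 (SE 0.11), and Prkar2b, another regulatory subunit, 2.13 (SE 0.15). Both Adcy3 and Prkar2b were under the fold threshold in limma on FPKM, at 0.88 and 1.75 on the log2(FPKM + 1) scale and 1.51 and 1.995 on the log2(FPKM + 0.1) scale. Adcy3 had a mean of 0.677 FPKM in αTC1 and 2.08 in βTC6, a smaller difference than in its counts. Of 5 desensitization genes all passed the filter and 0 were called, beside 10.2% of all genes called higher in βTC6 and 4.08% higher in αTC1 (median log2 fold change -0.15 with no filter). At the FDR alone 2 of the 5 were higher in each line, which is close to the 38.7% and 36% of all genes. The most abundant gene was not the same in both lines. Grk6, a receptor kinase, was highest in αTC1, at 39.5 to 46.5 FPKM against 21.7 to 21.9 in βTC6. Arrb2, a beta-arrestin, was highest in βTC6, at 36.1 to 46.8 FPKM against 21.9 to 25.4 in αTC1.

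Chromatin around the receptor genes was then compared between the lines. The deposited value is a TMM-normalized read count per peak, tested with limma on log2(value + 1) over all 65053 peaks. No value lies below 1 read, so a listed single read may also stand for no read. Of the 42 peaks, 8 were nearest to Crhr1, 7 each to Adcyap1r1 and Vipr2, 6 to Sctr, 5 to Glp1r, 3 to Vipr1 and 2 each to Gipr, Gcgr and Crhr2. At the FDR and fold thresholds 6 were called more open in βTC6 and 5 more open in αTC1, beside 12.9% and 5.38% of all peaks. Quantile normalization moved the balance of calls, to 2 and 6 here and from 8409 and 3502 to 5655 and 5126 over all peaks. With edgeR on whole reads the calls were 13 and 6 here and 13794 and 5739 over all peaks. With a pseudocount of 5 they were 0 and 0 here and 1668 and 819 over all peaks. At the FDR alone the βTC6 side held 19, the αTC1 side 16, and 7 passed in neither direction, beside 39.9% and 38.1% of all peaks in each direction. The median log2 fold change was 0.16 over these peaks and 0.00 over all peaks, and 76.2% of them had groups without overlap, against 63.9% of all peaks.

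**Figure D3:**
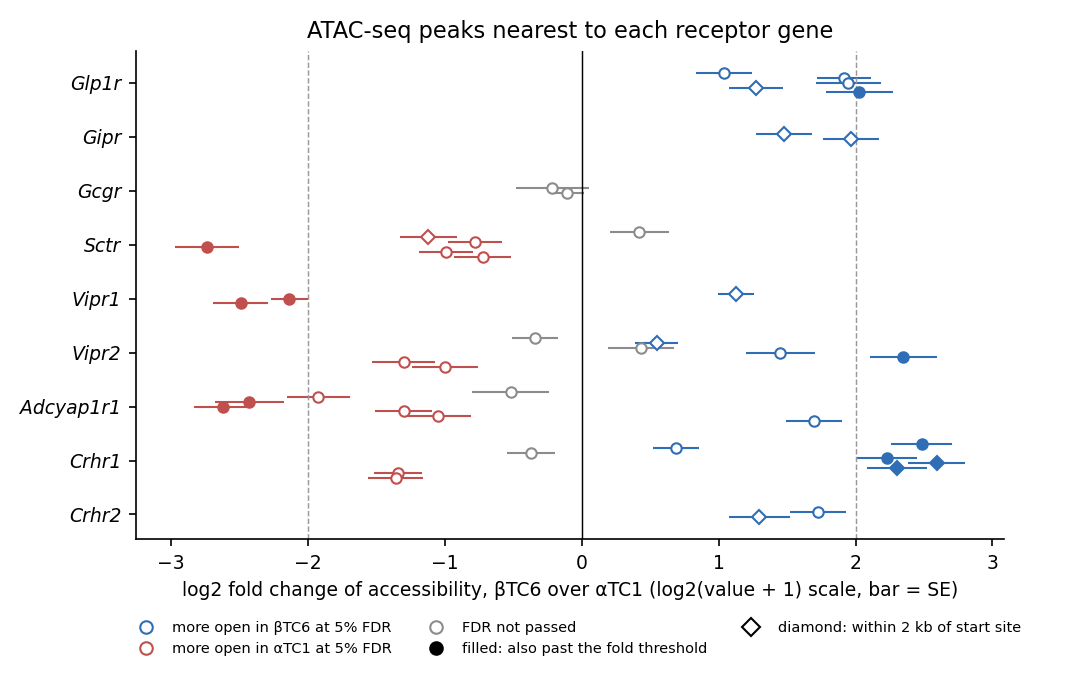
Log2 fold change of accessibility, βTC6 over αTC1, with its standard error for each of the 42 peaks, in a row per nearest receptor gene and from upstream (top) to downstream within a row (filled symbols called, open coloured symbols past the FDR alone, grey past neither, diamonds within 2 kb of the start site). All 5 Glp1r peaks and both Gipr peaks lie on the βTC6 side, 5 of 6 Sctr peaks pass on the αTC1 side, both Gcgr peaks lie near 0, and the peaks of Vipr1, Vipr2, Adcyap1r1 and Crhr1 lie on both sides.

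Promoter peaks, within 2 kb of the annotated start site, leaned towards βTC6. There were 9 of them over 7 members, and none for Gcgr, Adcyap1r1 or Calcrl. At the FDR 8 were more open in βTC6 and 1 more open in αTC1, whereas over all promoter peaks the shares were 23.4% on the βTC6 side and 52.3% on the αTC1 side. Gipr and Crhr1 gave 2 peaks each, so the 9 are not independent, and only the 2 at Crhr1 were called. A peak open in 1 line alone can enter the peak set through that line, so no more is read from these counts. Of the 13 peaks further inside a member gene, 3 lay on the βTC6 side and 9 on the αTC1 side, and of the 20 outside it 8 and 6. Among all peaks beyond 2 kb and inside their nearest gene, 43.6% were on the βTC6 side and 36.6% on the αTC1 side. Among those outside it, with that gene in GENCODE, the shares were 44.1% and 33.4%. A further 8119 peaks beyond 2 kb, with a nearest gene not in GENCODE by name, were left out.

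The Glp1r promoter peak (chr17:31038554-31039144, over an exon) had 1.68, 2.39, 1.65, 2.05 and 1.88 normalized reads in αTC1 replicates 1 to 5 and 6.67, 6.56, 6.62, 5.28 and 5.26 in βTC6. The groups did not overlap, and the log2 fold change was 1.27 (SE 0.20, limma adjusted p = 6.72e-06), under the fold threshold. The Gipr peak over its start site (chr7:19751260-19751695) rose from 1.34 ± 0.374 (SD, n = 5) in αTC1 to 5.54 ± 1.21 in βTC6, and the peak 865 bp inside the gene from 1.002 ± 0.369 to 6.77 ± 1.06, with log2 fold changes of 1.48 (SE 0.21) and 1.97 (SE 0.20). Both had non-overlapping groups, and edgeR on whole reads, which called 21.2% of all peaks in this direction, called both.

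Of the promoter peaks, both at Crhr1 passed the fold threshold in limma. The peak over the start site (chr11:103993982-103994560, over an exon) had 1.40, 1.69, 1.954, 0.955 and 0.578 normalized reads in αTC1 and 10.8, 11.1, 11.2, 9.56 and 8.36 in βTC6. The peak 880 bp upstream had 0.7003, 0.281, 0.150, 0.136 and 0.144 in αTC1, which is 1 to 5 reads, and 8.09, 3.897, 7.43, 7.13 and 7.51 in βTC6. Both sets of libraries were apart, with log2 fold changes of 2.30 (SE 0.22, limma adjusted p = 9.55e-09) and 2.59 (SE 0.21, adjusted p = 7.52e-10). After quantile normalization the peak over the start site was under the threshold, at 1.89. The Crhr2 promoter peak (chr6:55067491-55068248) went from 3.16 ± 0.813 to 9.36 ± 2.54 (log2 fold change 1.30, SE 0.22), in a gene with little mRNA in either line.

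The VIP receptor promoters were open in both lines. The Vipr1 promoter peak (chr9:121551021-121552256, over exons of Vipr1 and Lyzl4) held 11.3 ± 1.73 normalized reads in αTC1 against 25.9 ± 3.69 in βTC6 (log2 fold change 1.13, SE 0.13, limma adjusted p = 1.54e-07). The Vipr2 promoter peak (chr12:117315531-117316703) had 16.1 ± 4.59 in αTC1 and 23.3 ± 1.65 in βTC6, with overlapping groups and a log2 fold change of 0.55 (SE 0.16, adjusted p = 0.00327). The Sctr promoter peak (chr1:121903676-121904242) was the exception in direction, with 7.51 ± 1.5995 in αTC1 against 2.90 ± 0.566 in βTC6 (log2 fold change -1.12, SE 0.21), although Sctr mRNA was at 0 in nearly all libraries. The median peak on its chromosome had a log2 fold change of -0.61.

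**Figure D4:**
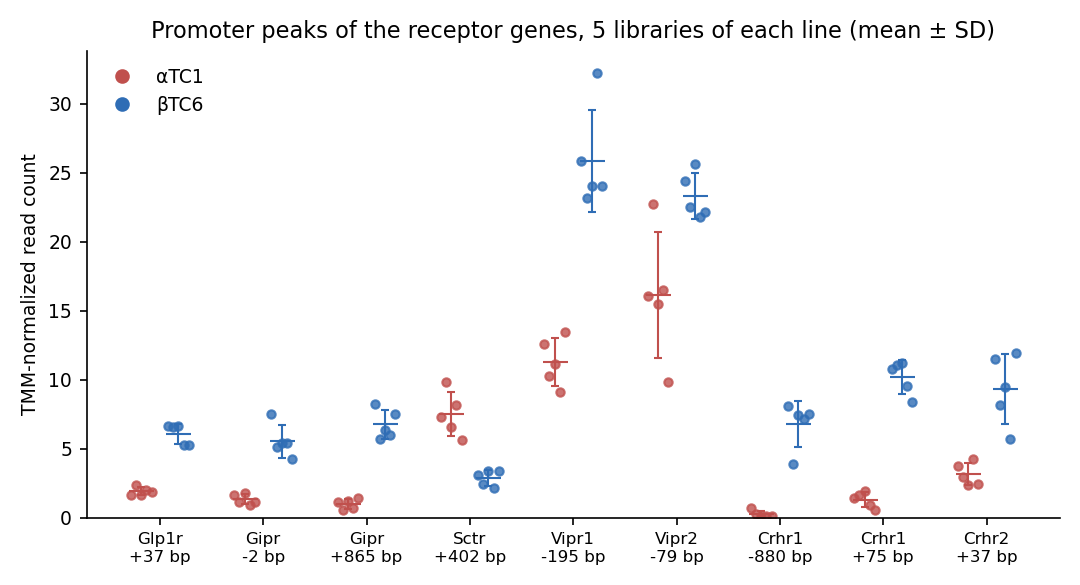
TMM-normalized read counts of the 9 promoter peaks, labelled by gene and distance to the start site, with 1 point per ATAC-seq library (5 αTC1 in red, 5 βTC6 in blue) and the mean ± SD. The βTC6 points lie above the αTC1 points at all peaks but those of Sctr, where they lie below, and Vipr2, where the groups overlap.

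Away from promoters the called peaks were spread over 6 members. For each of these members the central 200 bp of its most changed called peak outside promoters and exons is shown, as the sequence behind the values that follow, read from the mm9 genome on the plus strand. Capitals mark matches on either strand to the motifs searched, which were the cyclic AMP response element TGACGTCA, the homeobox core TAATTA, the forkhead motif TGTTTAC, the E-box CAGCTG and the Maf motif TGCTGAC. No motif holds another within it.

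Glp1r, 10996 bp downstream of the start site, intron, more open in βTC6, chr17:31049708-31049907: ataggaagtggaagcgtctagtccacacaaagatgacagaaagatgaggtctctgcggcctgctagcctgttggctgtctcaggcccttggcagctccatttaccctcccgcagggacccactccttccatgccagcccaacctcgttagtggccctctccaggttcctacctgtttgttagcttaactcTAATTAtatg
Crhr1, 44192 bp upstream, intergenic, more open in βTC6, chr11:103949904-103950103: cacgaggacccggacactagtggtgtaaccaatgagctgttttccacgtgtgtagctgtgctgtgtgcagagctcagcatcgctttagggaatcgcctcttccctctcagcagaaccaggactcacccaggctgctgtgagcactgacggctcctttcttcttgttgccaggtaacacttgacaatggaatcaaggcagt
Vipr2, 75373 bp downstream, beyond the gene, more open in βTC6, chr12:117391469-117391668: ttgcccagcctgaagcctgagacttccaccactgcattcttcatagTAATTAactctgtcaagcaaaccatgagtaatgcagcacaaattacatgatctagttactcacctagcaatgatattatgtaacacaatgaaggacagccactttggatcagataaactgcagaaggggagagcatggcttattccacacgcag
Sctr, 23625 bp downstream, intron, more open in αTC1, chr1:121927081-121927280: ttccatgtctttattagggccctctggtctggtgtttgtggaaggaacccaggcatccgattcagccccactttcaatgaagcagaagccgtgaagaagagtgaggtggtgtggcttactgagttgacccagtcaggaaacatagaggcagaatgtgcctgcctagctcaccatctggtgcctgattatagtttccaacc
Vipr1, 24824 bp downstream, intron, more open in αTC1, chr9:121576557-121576756: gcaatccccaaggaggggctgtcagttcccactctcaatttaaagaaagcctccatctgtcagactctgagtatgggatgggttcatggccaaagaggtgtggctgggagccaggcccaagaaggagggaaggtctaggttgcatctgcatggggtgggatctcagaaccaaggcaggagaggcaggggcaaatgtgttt
Adcyap1r1, 7406 bp upstream, intergenic, more open in αTC1, chr6:55394466-55394665: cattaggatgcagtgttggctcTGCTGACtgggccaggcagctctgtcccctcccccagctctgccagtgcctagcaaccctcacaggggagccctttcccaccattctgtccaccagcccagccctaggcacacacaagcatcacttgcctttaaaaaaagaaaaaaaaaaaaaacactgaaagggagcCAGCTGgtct

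Matches were few, as they were over all peaks. In the central 200 bp of the 42 peaks the E-box occurred in 8, the homeobox core in 5, the forkhead motif in 3, the Maf motif in 2 and the cyclic AMP response element in 0, while 17.2%, 6.92%, 6.32%, 4.86% and 0.761% of all peaks held them. Of all 42 peaks, 19 passed the FDR with βTC6 as the more open line and 16 with αTC1. Of the peaks with an E-box these numbered 4 and 2, of those with the homeobox core 3 and 1, of those with the forkhead motif 1 and 1, and of those with the Maf motif 0 and 2. RefSeq promoters, of 300 bases each, were matched for 8 members, and 0 of them held any of these motifs, against 16.3% of 32851 promoters for the E-box and 1.79% for the cyclic AMP response element.

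The Glp1r intronic peak shown above had 0.420, 0.562, 0.451, 0.819 and 0.144 normalized reads in αTC1, which is at most 6 reads, and 4.54, 2.26, 5.00, 5.85 and 9.20 in βTC6. The groups did not overlap, and βTC6 replicate 5 was the highest. Its log2 fold change of 2.03 (SE 0.24, limma adjusted p = 2.31e-07) lay just past the fold threshold and fell below it without αTC1 replicate 5 (1.94), βTC6 replicate 4 (1.98) or βTC6 replicate 5 (1.84), with replicates 1 to 3 alone (1.69) and after quantile normalization (1.595). The Glp1r peaks 14002 and 16187 bp upstream were just short of it, at 1.948 (SE 0.24) and 1.92 (SE 0.20), and edgeR on whole reads called both. The fifth peak, 24181 bp upstream, had 1.04 (SE 0.20).

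Besides its promoter, Crhr1 had called peaks 3289 and 44192 bp upstream. The peak at 44192 bp had 0.560, 0.421, 1.503, 1.09 and 0.578 normalized reads in αTC1 against 9.66, 7.18, 7.70, 9.56 and 11.5 in βTC6 (log2 fold change 2.48, SE 0.22, limma adjusted p = 3.53e-09). The peak at 3289 bp had 0.917 ± 0.555 in αTC1 against 7.82 ± 1.39 in βTC6 (log2 fold change 2.23, SE 0.22), and was under the threshold after quantile normalization (1.82) and with replicates 4 and 5 alone (1.75). The gene also held peaks of the other direction, since those 22571 and 25314 bp downstream, in introns, had 19.6 ± 3.05 and 16.9 ± 3.35 in αTC1 against 7.34 ± 2.55 and 6.13 ± 1.80 in βTC6 (log2 fold changes -1.34 and -1.36, not called). Crhr1 mRNA was nearly absent from the line in which these were more open, and GENCODE places another Crhr1 start site 1868 bp from the former.

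Vipr1 held peaks of both directions. Its peak 17236 bp downstream, over an exon (chr9:121568681-121569458), had 48.2, 50.6, 47.9, 48.9 and 59.1 normalized reads in αTC1 and 11.8, 11.3, 10.5, 14.3 and 7.23 in βTC6. The intronic peak 24824 bp downstream, shown above, had 13.2, 11.8, 10.7, 9.96 and 10.8 in αTC1 and 1.14, 0.820, 1.62, 0.999 and 1.41 in βTC6. Both were more open in αTC1 in every library, with log2 fold changes of -2.13 (SE 0.14, limma adjusted p = 3.05e-11) and -2.49 (SE 0.20, adjusted p = 8.81e-10), while the promoter peak and the mRNA were higher in βTC6. The former held the most reads of all called peaks here, at 319 to 409 in αTC1.

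Vipr2 had 1 called peak, 75373 bp downstream of its start site, with 1.82, 0.983, 0.150, 0.819 and 0.578 normalized reads in αTC1 against 10.4, 6.15, 10.1, 8.42 and 6.39 in βTC6 (log2 fold change 2.35, SE 0.24, limma adjusted p = 3.40e-08). After quantile normalization it was under the fold threshold, at 1.96. In GENCODE the start site nearest to it is that of a U6 RNA gene at 20217 bp, so its assignment to Vipr2 rests on the deposited annotation. The 2 peaks beyond it, at 79513 and 92176 bp, were more open in αTC1 at the FDR (log2 fold changes -1.30 and -0.9969), and the intronic peak at 24355 bp was more open in βTC6 (1.45).

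Sctr and Adcyap1r1 carried most of the αTC1 side without appreciable mRNA. The Sctr intronic peak 23625 bp downstream had 10.1, 8.29, 11.6, 9.42 and 11.3 normalized reads in αTC1 and 0.142, 0.205, 1.08, 1.28 and 0.939 in βTC6. The groups were far apart, with a log2 fold change of -2.73 (SE 0.23, limma adjusted p = 2.08e-09). It was the largest of the 42 in limma on log2(value + 1), while in edgeR on whole reads it was -3.68 and the Crhr1 peak 880 bp upstream had 4.51. Another 4 of the 6 Sctr peaks were more open in αTC1 at the FDR, with log2 fold changes from -0.72 to -1.12, and the peak 3874 bp upstream did not pass (0.42, adjusted p = 0.0831).

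The Adcyap1r1 peak 7406 bp upstream had 13.9, 14.3, 13.1, 14.7 and 21.4 normalized reads in αTC1 against 1.56, 1.85, 3.24, 0.713 and 3.76 in βTC6 (log2 fold change -2.43, SE 0.25, limma adjusted p = 3.27e-08). The peak 42116 bp downstream, over an exon, had 11.7 ± 1.85 in αTC1 against 1.07 ± 0.346 in βTC6 (log2 fold change -2.62, SE 0.21). A further 3 peaks were more open in αTC1 at the FDR, with -1.92 at 16109 bp upstream the largest. The peak at 16109 bp was called by edgeR on whole reads (-2.31) and after quantile normalization (-2.29). The farthest peak, 78541 bp downstream, was more open in βTC6 (1.70, SE 0.21), and the peak 17544 bp upstream did not pass (-0.52, adjusted p = 0.0977).

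The chromosome moved with some of these values. Over all peaks, the median log2 fold change was -0.79 on chromosome 6 (Adcyap1r1 and Crhr2), -0.61 on chromosome 1 (Sctr) and -0.57 on chromosome 7 (Gipr), and between -0.28 and 0.12 on the chromosomes of the other members. Relative to its chromosome's median, the difference was -1.63 and -1.83 for the called Adcyap1r1 peaks, -2.13 for the called Sctr peak, and -0.51 for the Sctr promoter, so that both Adcyap1r1 peaks were under the fold threshold. So was the called Vipr1 peak 17236 bp downstream, at -1.85. In the other direction 5 peaks that were not called came to lie above it. These were the Gipr peaks inside the gene (1.97 became 2.53) and at the start site (1.48 became 2.04), the Crhr2 promoter peak (1.30 became 2.09) and the one 3923 bp upstream (1.73 became 2.52), and the Adcyap1r1 peak 78541 bp downstream (1.696 became 2.49). The part of the chromosome in these results was not tested.

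Gcgr had no called peak. Its peaks 15002 bp upstream and 8741 bp downstream, just beyond the end of the gene, had 5.96 ± 1.52 and 32.1 ± 4.96 normalized reads in αTC1 and 5.29 ± 2.76 and 29.8 ± 4.59 in βTC6. The log2 fold changes of -0.21 (SE 0.27, limma adjusted p = 0.472) and -0.11 (SE 0.12, adjusted p = 0.43) were within the spread of the libraries. For Crhr2 the remaining peak, 3923 bp upstream by the deposited annotation and inside the gene in GENCODE, was more open in βTC6 (1.73, SE 0.20).

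The study's sequencing summary computed the share of mitochondrial reads by a different formula for ATAC-seq replicates 1 to 3 of each line than for replicates 4 and 5, so the comparison was repeated within each set. All 35 peaks that passed the FDR had the same direction in both sets. These peaks were selected on the same libraries, so nothing is read from that agreement. Over the 11 called peaks the absolute log2 fold change was 1.69 to 2.94 in replicates 1 to 3 and 1.75 to 2.87 in replicates 4 and 5. The Glp1r intronic peak was under the fold threshold in replicates 1 to 3 alone (1.69), and the Crhr1 peak 3289 bp upstream in replicates 4 and 5 alone (1.75).

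The mixtures were not part of these calls, and they asked whether each called peak followed the share of αTC1 cells. Each mixture is 1 library, so the relation was tested over 9 compositions with exact 2-sided permutation tests adjusted over the 11 called peaks. All 6 peaks called more open in βTC6 fell with the αTC1 percentage and all 5 called more open in αTC1 rose with it, with an absolute Pearson r of 0.712 to 0.960 and a median of 0.908. All 11 adjusted exact p-values of r were below 0.05, and so were 10 of 11 for Spearman's rho.

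The Adcyap1r1 peak 7406 bp upstream had the highest r, with 6.32, 8.91 and 20.1 normalized reads at 10%, 50% and 90% αTC1 (r = 0.960, exact p = 7.17e-05, adjusted p = 0.000691, Spearman's rho 0.983). Its level did not follow the line between the pure means. The value at 90% was above the αTC1 mean of 15.5, and 0 of the 9 mixtures lay below that line. The Crhr1 peak 44192 bp upstream went from 10.1 to 1.63 between 10% and 90% αTC1 (r = -0.945, exact p = 0.00027, adjusted p = 0.000691, rho = -0.933). The Vipr1 exonic peak rose from 12.4 to 51.2 (r = 0.939, exact p = 0.00027, adjusted p = 0.000691, rho = 0.90), and the Sctr intronic peak from 3.09 to 10.6 (r = 0.937, exact p = 0.000221, adjusted p = 0.000691, rho = 0.917).

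The weakest relation was that of the Glp1r intronic peak (r = -0.712, exact p = 0.0285, adjusted p = 0.0285), whose rho of -0.683 had an adjusted exact p of 0.0503. Without the mixtures at 10% and 90%, 7 of 11 relations kept an adjusted exact p below 0.05. Those of the Glp1r intronic peak (r = -0.532), the Crhr1 peaks 3289 bp upstream (r = -0.460) and over the start site (r = -0.542) did not, so they rest on the outermost mixtures. That of the Vipr2 peak also missed the threshold over 7 mixtures (adjusted exact p = 0.0557), although its r of -0.796 was close to the -0.815 over 9. At 50% αTC1 the value lay close to the mean of the lines for the Crhr1 peak 880 bp upstream (3.51 against 3.55) and farther from it for the Sctr peak (8.04 against 5.43).

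**Figure D5:**
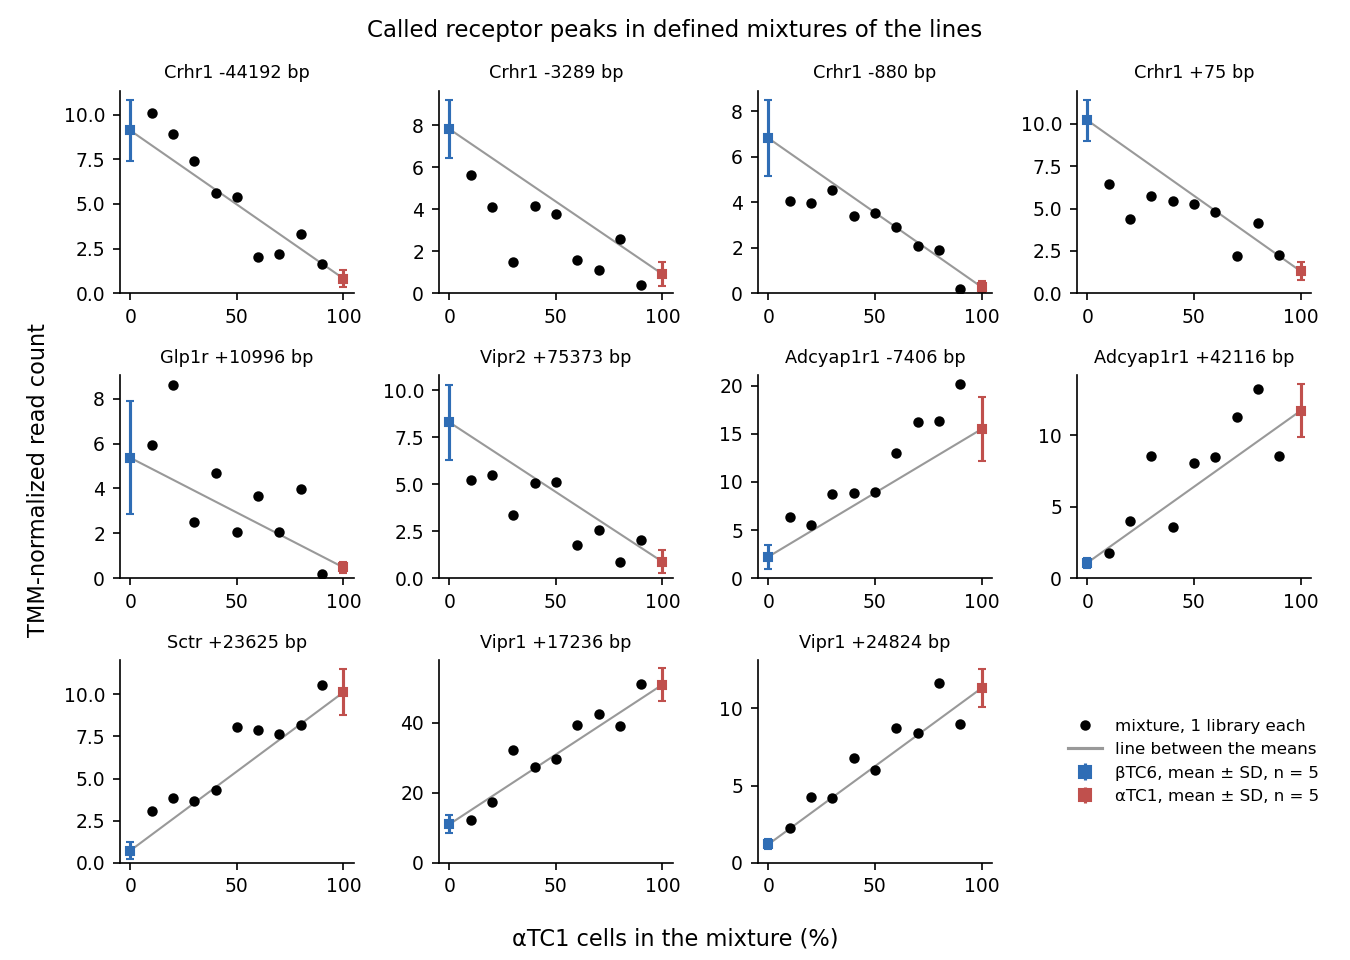
TMM-normalized read counts of the 11 called peaks against the percentage of αTC1 cells, with the 9 mixtures (black, 1 library each), the pure lines (blue βTC6, red αTC1, mean ± SD, n = 5) and the straight line between their means. Values fall with αTC1 content for the 6 Crhr1, Glp1r and Vipr2 peaks and rise for the 5 Adcyap1r1, Sctr and Vipr1 peaks, with the weakest relation at the Glp1r peak (r = -0.712).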

How the data were processed

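The lines αTC1 and βTC6 were profiled by RNA-seq (3 libraries per line) and ATAC-seq (5 per line and 9 mixtures of counted cells). The authors trimmed reads, aligned RNA-seq reads with Bowtie2 and counted them with RSEM against mm9, and deposited expected counts and FPKM values. For ATAC-seq they aligned with BWA, called peaks with MACS2 and deposited a TMM-normalized signal, the read count per consensus peak. The submitters' processing notes name RSEM 1.2.12, Bowtie2 2.23, BWA 0.7.9a, MACS2 2.1.0 and DiffBind 2.2.5. The deposited columns of peak type hold the authors' own comparison and signature classes and were not used, and 0 value columns were left unmatched to a library. ATAC-seq values were whole multiples of 1 read in 100% of cases (tolerance 0.01 reads).

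Expected counts were rounded and tested with edgeR 4.0.16 (TMM, quasi-likelihood) in R 4.3.3, after removal of 92 spike-in rows (0.436% to 0.971% of counts) and with a filter of at least 1 FPKM in all replicates of either line. The study's RUVSeq normalization was not run here, and spike-in scaling and a spike-in factor were alternatives. Peaks were tested with limma 3.58.1 on log2(value + 1). Calls needed an FDR below 5% and a log2 fold change beyond 2 in either direction. Ratios of counts carry exact 95% binomial intervals, scaled by library size, that cover counting error only, and 3 counts per library was the floor for a line at 0. Members, gene lists and motifs were chosen with earlier results of these data known. Named genes were all 10 members, the called genes of each list and its most abundant gene, and named peaks were the called peaks and the peak nearest each start site, with the others chosen after their values were seen. For each called member the 3 genes with the highest r are named. Alternatives covered DESeq2 1.42.0, log2(FPKM) in limma, no filter, pseudocounts, quantile normalization, edgeR on whole ATAC-seq reads, left-out libraries and a replicate block. The scripts were tested on simulated data. Replicate numbers did not pair the samples. Promoter sequences are from RefSeq on GRCm38.p6, and peak sequences and gene positions from mm9 with GENCODE vM1.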

Additional observations from a re-analysis of the deposited data

Results flagged for a closer look

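In 11 of 84 groups of 5 ATAC-seq libraries, the highest or lowest library stood apart from the nearest other by more than Dixon's critical share of the range (0.71). Chance flags about 1 in 20 groups, or 4.2 here. αTC1 replicate 5 accounted for 5 of the 11. It was high at the Adcyap1r1 peak 7406 bp upstream (21.4 normalized reads, nearest 14.7), at the Crhr1 peaks 3289 bp upstream (1.88, nearest 0.902) and 22571 bp downstream (24.8, nearest 19.1) and at the Vipr1 exonic peak (59.1, nearest 50.6). It was low at the Gcgr peak 15002 bp upstream (3.32, nearest 6.18).

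At the Crhr1 peak 880 bp upstream, αTC1 replicate 1 was high with 5 reads (0.7003, nearest 0.281) and βTC6 replicate 2 was low (3.897, nearest 7.13). Low values also set apart αTC1 replicate 2 at the Glp1r peak 24181 bp upstream (2.39, nearest 3.31), βTC6 replicate 5 at the Crhr1 peak 25314 bp downstream (3.01, nearest 6.49) and βTC6 replicate 4 at the Vipr2 peak 6491 bp upstream (6.85, nearest 9.20). βTC6 replicate 3 was high at the Adcyap1r1 peak 17544 bp upstream (3.51, nearest 1.64). The part of these libraries in the results above was measured by leaving each out, which changed no direction at these peaks.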

How the results depend on the processing

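No called result changed direction under any alternative run. Peaks that did not pass the FDR did: with replicates 4 and 5 alone the Gcgr peaks had 0.38 (15002 bp upstream) and 0.12 (8741 bp downstream), and quantile normalization gave 0.17 for the latter, -0.09 for the Sctr peak 3874 bp upstream and -0.01 for the Vipr2 peak 18822 bp downstream. Over all settings, 299 values of named genes kept their side of the thresholds and 8 lost the call, and of the member peak values 739 kept it, 25 gained it and 20 lost it. Genes called higher in βTC6 and αTC1 numbered 702 and 277 with limma on log2(FPKM + 1), and 2510 and 1020 with no filter, where 1 member was called higher in αTC1. With no filter and without αTC1 replicate 3, an alternative chosen after seeing the data, they were 2426 and 927. On log2(FPKM + 1) Calca (-1.57) and Ramp1 (1.84) also fell under the fold threshold. Peaks called numbered 13794 and 5739 with edgeR on whole reads, which called 13 member peaks higher in βTC6 (21.2% of all peaks), and 1668 and 819 with a pseudocount of 5, which called 0 member peaks in either direction. Quantile normalization called 2 member peaks higher in βTC6. Without the outermost mixtures r was -0.460 and -0.542 for the Crhr1 peaks 3289 bp upstream and over the start site, -0.532 for the Glp1r intronic peak, whose Spearman rho was -0.683, and -0.796 for the Vipr2 peak. Leaving out 1 library at a time gave 1227 to 1316 and 496 to 522 genes, 8151 to 8620 and 3314 to 3714 peaks, 5 to 5 and 0 to 0 member genes, and 5 to 8 and 5 to 6 member peaks. Same-numbered libraries of the lines did not deviate together (correlations from -0.04 to 0.02 in RNA-seq and from -0.0019 to 0.069 in ATAC-seq), and not every library matched its own number best. With the replicate number as a block, 1241 and 503 genes and 8409 and 3502 peaks were called. The block kept 5 and 0 member genes and 6 and 5 member peaks, and left peak fold changes as they were since each number occurs in both lines. Causes of these shifts were not tested. Depth limits Gcgr, Sctr, Calcrl and Adcyap1r1, with at most 43 counts per line, and the αTC1 side of peaks with a few reads.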

Other observations

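Prkar1a, the called protein kinase A subunit, also differed at every one of its 5 peaks. All 5 were at the lowest value, 1 read, in each αTC1 library, which may also stand for no read. The peak 269 bp upstream of its start site had 43.3 to 57.8 normalized reads in βTC6, and 42.5 and 0.203 in the mixtures with 10% and 90% αTC1. These peaks lie in a run of 54 consecutive peaks on chromosome 11 with at most 3 reads in every αTC1 library, over 2140 kb (mm9), a level seen in 1.82% of all peaks. Gna13, a G protein alpha subunit gene in the same run, had 0 FPKM in αTC1 and 17.6 to 20.5 in βTC6. Crhr1 and Gcgr are on the same chromosome outside this run.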
